A study of Mus musculus with 12 samples.

Results

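The comparison set the H2A.Z peaks found after a cocaine challenge (CC, cocaine followed by cocaine) against those found after a first exposure to cocaine (SC, saline followed by cocaine) in the nucleus accumbens of mouse brain. Its members were all peaks on chromosomes 1 to 19 of the 2 deposited lists, 22584 in SC and 4670 in CC. Together they are 27254 of the 59069 peaks in the series. Genes entered through the authors' annotation: a gene had a promoter peak when the middle of a peak lay within 1000 bp of its transcription start site (TSS). An SC promoter gene was called held when a CC promoter peak carried the same gene name.

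The series profiled 12 samples by chromatin immunoprecipitation and sequencing, 3 in each of 4 conditions, each a first treatment followed by a second. SC and CC differ in the earlier treatment and share the final cocaine exposure, which the labels call acute and challenge. The other conditions, saline-saline (SS) and cocaine-saline (CS, called withdrawal), serve here as reference lists with 24190 and 6238 peaks on the same chromosomes. No genotype, strain, age, sex, dose, interval or batch is given in the labels, and whether the 3 samples of a condition came from separate animals is not stated. Each condition has 1 peak list naming all 3 of its samples, so no spread between samples could be computed and no test between SC and CC was possible. All intervals below are exact (Clopper-Pearson) 95% intervals for a share, and they cover counting error only. The tissue is a mixture of cell types, so a peak carried by fewer cells and a weaker peak in the same cells cannot be told apart.

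The histone variant H2A.Z replaces canonical H2A in selected nucleosomes, most often those that flank the start sites of genes. It is placed by the SRCAP and p400-TIP60 complexes, and ANP32E and the INO80 complex have been linked to its removal. In neurons, H2A.Z at promoters has been linked to activity-dependent transcription and to memory. Cocaine raises dopamine in the nucleus accumbens, where most neurons are GABA-releasing medium spiny neurons that carry D1 or D2 dopamine receptors.

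The 2 lists differed in kind as well as in length. SC peaks had a median width of 730 bp and a smallest width of 315 bp, and covered 17.6 Mb. CC peaks had a median width of 107 bp and a smallest width of 67 bp, and covered 0.581 Mb. SS resembled SC, with a median width of 737 bp, and CS resembled CC, with 109 bp. The median fold enrichment, the authors' ratio of signal over background for a peak, was 4.66 in SC and 4.81 in CC. The largest q-value in the list was 0.000572 in SC and 0.0625 in CC, and 97.9% of SC peaks but 18.1% of CC peaks had a q-value of at most 1e-05. Width, stringency and the earlier treatment therefore changed together between SC and CC and cannot be told apart in these lists. The fold enrichment was used to rank peaks within a list and not to measure a change.

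The sequences below show the bases under a CC peak for 4 genes held in CC and for Tpbg, which had a CC promoter peak and no SC peak. Each is the 250 bases upstream of the RefSeq start site in GRCm38.p6, 5′ to 3′ on the gene's strand, with the bases under the CC peak in capitals. The capitals take the lists' starts as counted from 0, which is not stated, so their edges may be off by 1 base. Ino80 and Kat5 encode catalytic subunits of complexes that act on H2A.Z nucleosomes, Xpa a nucleotide excision repair factor, Plk4 a kinase of centriole duplication, and Tpbg a cell surface glycoprotein. Kat5, Plk4 and the choice of these 5 genes were made after their values were seen. All 5 have their CC peak inside the printed upstream window, whereas 56.1% of CC promoter peaks were centred downstream of the start site. The 5 therefore do not show where CC peaks usually lie.
Ino80, chr2:119477688-119477937, minus strand: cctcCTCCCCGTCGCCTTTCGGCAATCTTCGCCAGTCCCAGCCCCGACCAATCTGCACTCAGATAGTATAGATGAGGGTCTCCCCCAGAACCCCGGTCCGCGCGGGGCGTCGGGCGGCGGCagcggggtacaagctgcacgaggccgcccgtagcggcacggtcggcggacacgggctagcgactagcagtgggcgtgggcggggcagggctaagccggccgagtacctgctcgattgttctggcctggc
Kat5, chr19:5610095-5610344, minus strand: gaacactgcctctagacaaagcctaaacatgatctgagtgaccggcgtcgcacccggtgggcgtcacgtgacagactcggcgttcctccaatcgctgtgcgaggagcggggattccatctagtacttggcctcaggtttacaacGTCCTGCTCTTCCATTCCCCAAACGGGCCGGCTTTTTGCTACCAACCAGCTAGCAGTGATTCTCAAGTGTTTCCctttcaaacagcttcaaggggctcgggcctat
Xpa, chr4:46196312-46196561, minus strand: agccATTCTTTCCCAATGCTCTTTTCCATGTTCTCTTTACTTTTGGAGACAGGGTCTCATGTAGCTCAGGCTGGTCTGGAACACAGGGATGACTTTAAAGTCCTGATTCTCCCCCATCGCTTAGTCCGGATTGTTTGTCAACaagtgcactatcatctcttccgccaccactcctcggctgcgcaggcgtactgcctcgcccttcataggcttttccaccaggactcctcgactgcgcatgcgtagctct
Plk4, chr3:40799701-40799950, plus strand: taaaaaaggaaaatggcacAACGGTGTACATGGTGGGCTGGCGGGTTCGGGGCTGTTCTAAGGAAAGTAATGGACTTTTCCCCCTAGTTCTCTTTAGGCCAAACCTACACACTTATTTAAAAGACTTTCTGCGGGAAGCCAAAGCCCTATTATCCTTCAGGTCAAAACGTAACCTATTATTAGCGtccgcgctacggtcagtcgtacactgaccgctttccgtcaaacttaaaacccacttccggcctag
Tpbg, chr9:85842602-85842851, plus strand: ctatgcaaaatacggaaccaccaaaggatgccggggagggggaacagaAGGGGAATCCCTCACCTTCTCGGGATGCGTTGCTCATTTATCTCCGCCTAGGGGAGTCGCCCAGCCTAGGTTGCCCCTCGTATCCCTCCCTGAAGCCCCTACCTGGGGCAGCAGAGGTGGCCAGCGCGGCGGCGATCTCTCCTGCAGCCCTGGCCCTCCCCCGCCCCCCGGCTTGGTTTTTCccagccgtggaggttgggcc

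At Ino80, an SC peak of 1493 bp at fold enrichment 11.8 spanned the start site, and the CC peak of 117 bp covered bases −246 to −130 relative to the RefSeq start. The SC peak of Xpa was 1270 bp wide at 12.6, with a CC peak of 138 bp. At Plk4 the SC peak was 1497 bp wide at 7.97 and the CC peak 166 bp wide at 5.58. Kat5 had an SC peak of 1295 bp at 6.43 and a CC peak of 74 bp at 6.39. The Tpbg CC peak, 182 bp wide at 5.60, lay wholly inside the printed window.

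Of the SC peaks, 3633 were overlapped by a CC peak by at least 1 bp, which is 16.1% (15.6 to 16.6%). In the other direction 4179 of 4670 CC peaks lay on an SC peak, 89.5% (88.6 to 90.4%). By length, the overlap made up 2.95% of the SC territory and 89.3% of the CC territory. The CC list was thus nearly a subset of the SC list by position, in small pieces: the CC peaks on an SC promoter peak covered a median of 10.5% of its width. Of the overlapped SC peaks, 3147 carried 1 CC peak and 486 carried 2 or more. With q-values of at most 1e-05 in both lists, 2.88% of SC peaks were overlapped. When SC was shortened to its 4670 strongest peaks, the length of CC, 26.1% of CC peaks lay on an SC peak.

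At gene level, 3011 of 12583 SC promoter genes were held, 23.9% (23.2 to 24.7%). By the alternative that a CC peak overlapped an SC promoter peak of the gene, 3085 genes were held (24.5%). The authors assign each peak to 1 gene, so a promoter shared by neighbouring genes can change name, and 212 genes were overlapped without being held by name. Another 138 genes were held by name through a CC promoter peak that lay off their SC promoter peaks. That CC peak lay beside the SC peak at H2afv and at a different start site at Phf21a. Neither a CC promoter peak of the same name nor an overlapping CC peak was found for 9360 SC promoter genes. The held share was 3.77% with q-values of at most 1e-05 in both lists. It was 23.6% with SC cut to its 4670 strongest peaks, the length of CC. From the CC side, 3011 of 3389 promoter genes also had an SC promoter peak. Protein-coding genes were held at 25.2% (2816 of 11157), long intergenic noncoding RNA genes at 14.2% (60 of 424) and microRNA genes at 15.1% (13 of 86). The share varied from 20.1% on chromosome 12 to 31.2% on chromosome 16.

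Strength in SC did not order the genes in a simple way. With the SC promoter genes in 10 equal groups by the fold enrichment of their strongest SC promoter peak, the held share was 6.99% in the weakest group and 17.1% and 27.3% in the next 2 groups. It was highest in groups 4 and 5, at 34.7% and 34.6%, for fold enrichments of 5.04 to 6.64. It then went down to 20.0% in group 7 and was 25.1% in the strongest group, at fold enrichments of 13.1 to 20.8. Held and not held genes had nearly equal median SC fold enrichments, 6.61 and 6.67.

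Width in SC ordered the genes more evenly. The held share went from 9.85% (8.26 to 11.6%) in the narrowest of 10 groups to 34.9% (32.3 to 37.6%) in group 9, and was 31.1% in the widest. Held genes had a median SC peak width of 1059 bp and the others 902 bp. The strongest SC peaks were not the widest: the median width was 1127 bp in fold-enrichment group 7 and 843 bp in group 10. Within each of 5 fold-enrichment groups, the held share was lowest for narrow, higher for middle and highest for wide SC peaks. In the strongest of the 5 it was 14.5%, 27.1% and 37.6%, and in the weakest 10.0%, 14.5% and 20.2%. A wider SC peak offers more bases to overlap, and its part in the trend was not tested. Per 100 kb of SC territory there were 9.20 CC peaks in the narrowest group of all SC peaks, 32.9 in group 9 and 29.7 in the widest. These groups hold peaks of every region class and also differed in median fold enrichment, at 3.11, 6.92 and 6.28.

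**Figure D1:**
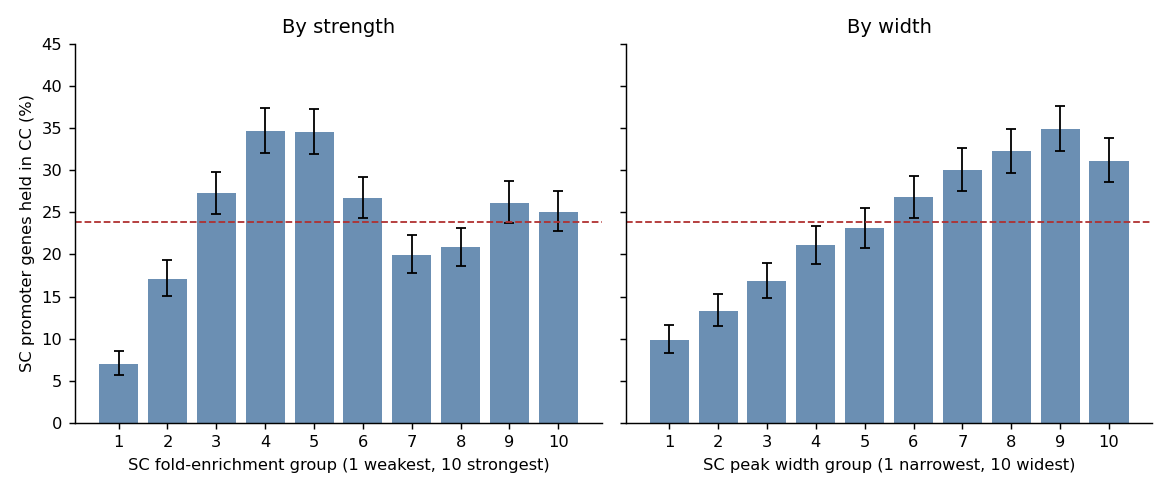
Share of SC promoter genes held in CC (y axis, percent) in 10 equal groups of genes by the fold enrichment (left) or width (right) of the strongest SC promoter peak. Bars are shares, error bars exact 95% intervals and the dashed line the share over all SC promoter genes, 23.9%. The share peaks in the middle of the strength range, at 34.7% in group 4, and is highest by width in group 9, at 34.9%.

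The strongest held genes, with predicted genes, clones and pseudogenes skipped, illustrate the top group. Aard had the highest SC value among them, 19.1 at chr15:52040115-52040775, with a CC peak of 150 bp at 6.45. Cdkn2a, which encodes the cell cycle inhibitors INK4A and ARF, had 17.1 in SC and 4.90 in CC. Stk17b had 17.0 and 5.45, and Igfbp2, an insulin-like growth factor binding protein, 16.9 and 4.35. The next 6 were Rarres1, Ror1, Stx11, Susd1, Cdca7l and Mfsd4a, with SC values of 16.1 to 16.6 and CC values of 4.14 to 5.52. All 10 also had an SS promoter peak, and 5 of them a CS promoter peak.

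The strongest SC promoter genes with no CC peak, chosen with the same names skipped, were as strong. Bnc2, a zinc finger protein gene, had 18.3 in SC at chr4:84545205-84545923. Erich2 and Ikzf3, a lymphoid transcription factor, both had 18.2, and Pou4f2 17.9. Chrna5, a nicotinic acetylcholine receptor subunit, had 17.7, and Lpar3, a lysophosphatidic acid receptor, 17.6. Mcm9 (17.4), Sema3c (17.3), Foxi3 (17.3) and Lrrc59 (17.2) completed the 10. All 10 had an SS promoter peak, and Mcm9 and Sema3c also a CS promoter peak.

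The highest CC values among held genes came from other places in the SC order. With predicted genes, clones and pseudogenes skipped, Sfi1 led with 12.6 in CC, over an SC peak at 5.12. It was the only one of the 10 with 8 CC promoter peaks, since the others had 1 or 2. Phf21a followed at 9.06 and was held by name only. Its CC peak (chr2:92093697-92093771) lay 597 bp downstream of a different start site from that of its SC promoter peak (chr2:92183019-92183987). Mir6236 had 8.70 and Srp19, a signal recognition particle subunit, 7.61. Sidt1, Zc3h15, Ipo9, Bphl, R3hcc1 and Trmu lay between 7.25 and 7.47 in CC and between 4.46 and 12.4 in SC. All 10 also had an SS promoter peak. In CS, Sfi1 had 14.9, Phf21a 8.36 and Mir6236 8.70. Srp19, Bphl, R3hcc1 and Trmu had CS values of 4.68 to 5.35, and Sidt1, Zc3h15 and Ipo9 had no CS promoter peak.

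Region class separated the SC peaks. The authors' class for peaks within 250 bp of a start site (ProximalPromoter) was overlapped at 24.3% (2639 of 10850). The class reaching to 1000 bp (Promoter1k) was overlapped at 14.2% (486 of 3418) and the class beyond it (Promoter3k, with middles from −2999 to 2996 bp) at 8.59% (86 of 1001). Peaks in gene bodies were overlapped at 4.31% (139 of 3228) and other intergenic peaks at 6.82% (278 of 4074). Of 13 subtelomeric SC peaks, 5 were overlapped. The median SC width was 973 bp in ProximalPromoter, 481 bp in gene bodies and 500 bp in the subtelomeric class. Counted per 100 kb of SC territory, there were 29.8 CC peaks in ProximalPromoter, 21.0 in Promoter1k, 16.9 in Promoter3k, 13.1 in intergenic, 8.76 in gene body and 103.9 in subtelomeric peaks.

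The composition of the lists differed mainly beside the start site. ProximalPromoter made up 48.0% of SC and 45.7% of CC peaks, while Promoter1k made up 15.1% of SC and 37.3% of CC. Gene body peaks made up 14.3% of SC and 4.52% of CC, and intergenic peaks 18.0% and 8.82%.

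**Figure D2:**
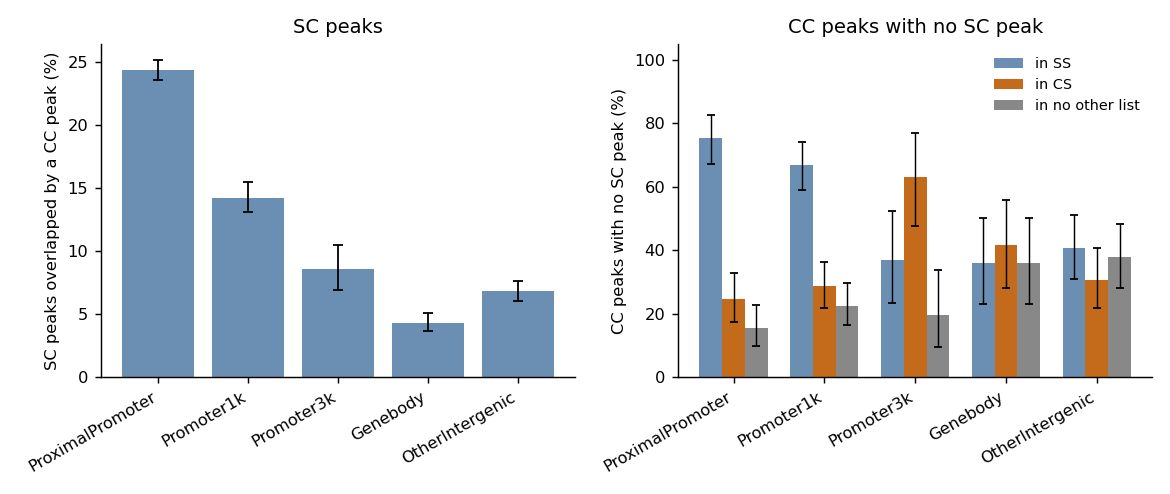
Left, share of SC peaks overlapped by a CC peak (y axis, percent) by the authors' region class. Right, share of the CC peaks with no SC peak that overlapped an SS peak, a CS peak or neither (y axis, percent), by class. Error bars are exact 95% intervals. The left panel goes from 24.3% in ProximalPromoter to 4.31% in gene bodies, and on the right SS leads in both promoter classes, at 75.4% and 66.9%. The 13 subtelomeric peaks of SC are not drawn.

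Position relative to the start site gave a related picture. SC promoter genes whose strongest SC peak was centred 0 to 200 bp upstream were held at 28.0% (1131 of 4035), and those centred 0 to 200 bp downstream at 23.8% (1200 of 5049). Farther downstream the share was 21.0% at 200 to 400 bp, 16.9% at 400 to 600 bp and 13.2% at 600 to 800 bp. Upstream it was 19.8% at 200 to 400 bp, 19.1% at 400 to 600 bp and 23.6% (30 of 127) at 600 to 800 bp. In the outermost bins, 4 of 68 genes upstream and 11 of 77 downstream were held. Median SC width was largest, at 1063 bp, in the bin just upstream of the start site.

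CC peaks were centred beside the start site more often than on it. Of SC promoter peaks, 46.6% were centred within 100 bp of the start site, compared with 20.9% (19.7 to 22.3%) of CC promoter peaks. Between 200 and 500 bp upstream lay 24.2% of CC promoter peaks and 8.51% of SC promoter peaks. Between 100 and 300 bp downstream lay 28.5% and 23.9%. The CC positions thus had 2 modes, one 300 to 400 bp upstream with 9.46% of the peaks and the other 100 to 200 bp downstream with 16.5%. These are the positions of narrow CC peaks and the middles of wide SC peaks, so they compare the lists as deposited.

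**Figure D3:**
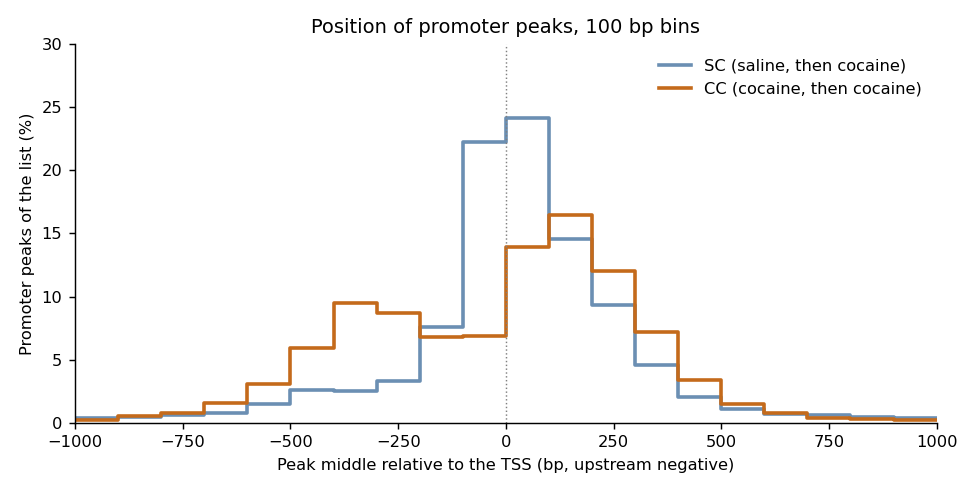
Middle of promoter peaks relative to the start site (x axis, bp, upstream negative) as a share of the promoter peaks of each list (y axis, percent), in 100 bp bins. The SC line has 1 maximum at the start site, 24.2% in the bin 0 to 100 bp downstream, and the CC line has a mode on each side of it.

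The middle of a CC peak lay a median of 226 bp from the middle of the SC promoter peak it overlapped (quartiles 112 and 354 bp). A total of 434 SC peaks held exactly 2 CC peaks, whose middles were a median of 412 bp apart (quartiles 260 and 593 bp), with a minimum of 154 bp. The bin of 200 to 300 bp held the most pairs, 114. Of the 387 such SC promoter peaks, 189 (48.8%) had 1 CC peak on each side of the start site. Cdca7l had them at −167 bp and 181 bp under an SC peak of 16.2. Atoh7, a neurogenic transcription factor gene, had them at −252 bp and 173 bp. Dis3, a catalytic exosome subunit, had them at −369 bp and 36 bp. These 3 are among the 5 strongest such SC peaks and were chosen after their values were seen.

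The functional lists ranged widely around the 23.9% of all SC promoter genes. Among the 31 lists with at least 10 SC promoter genes, the median held share was 20.3% and the range 0 to 43.3%. Genes of chromatin exchange, cell division, DNA repair and zinc finger proteins were at the top. Neuronal receptors, channels, immediate early genes and developmental transcription factors were at the bottom. These are counts for lists chosen with earlier results of these data known, and no list was tested.

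**Figure D4:**
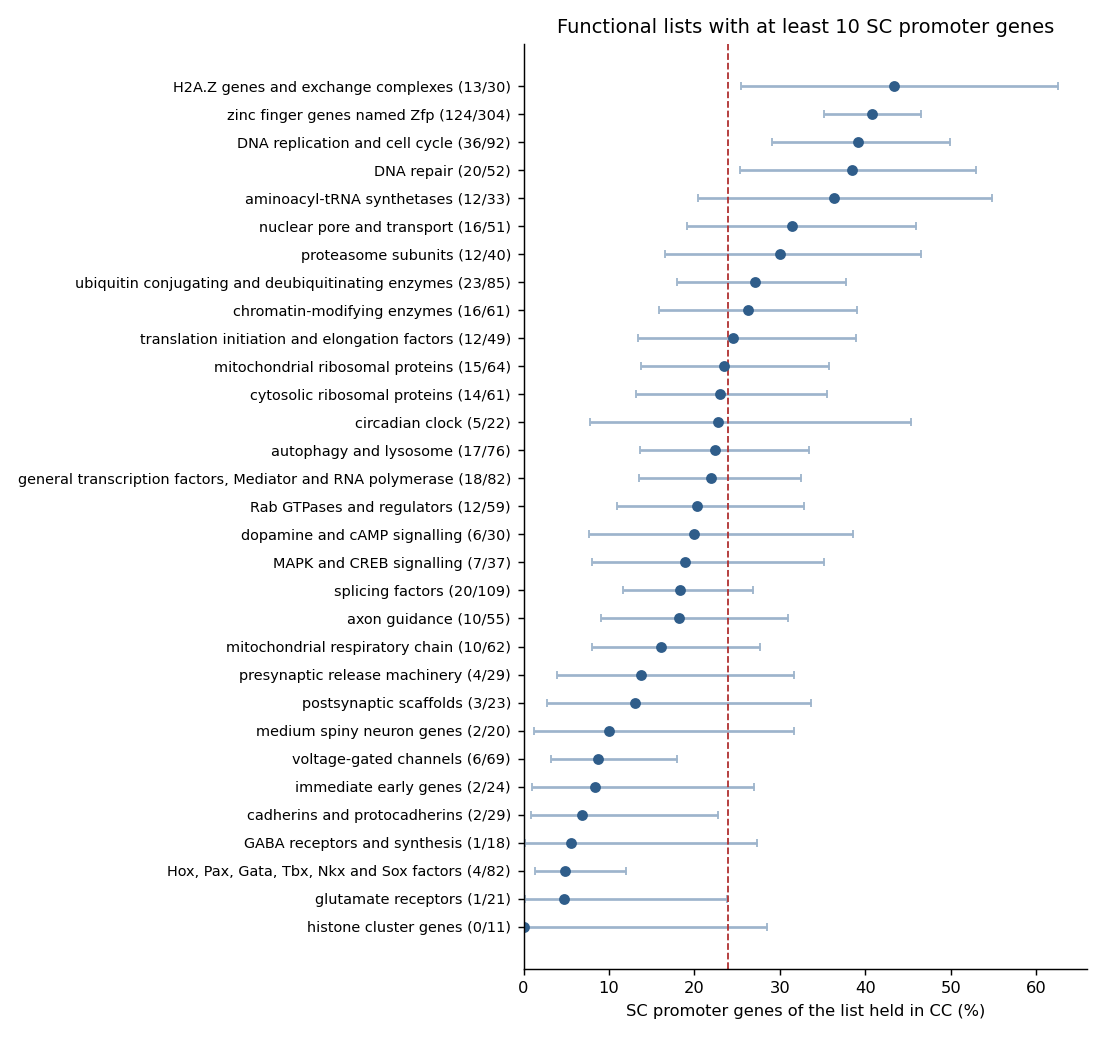
Share of the SC promoter genes of each list that were held in CC (x axis, percent), for the 31 lists with at least 10 SC promoter genes. Points are shares, bars exact 95% intervals, counts stand in parentheses and the dashed line is the 23.9% of all SC promoter genes. The intervals of the 4 lists at the top lie wholly above the line by gene name, which for the H2A.Z list did not hold by overlap or within 500 bp. The intervals of the voltage-gated channels, the developmental factors and the cadherins are among those wholly below it. For the cadherins this did not hold within 500 bp, where the interval (1.03 to 27.0%, 2 of 24) includes the 22.6% of all genes.

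H2A.Z genes and their exchange complexes were held in 13 of 30 cases (43.3%, 25.5 to 62.6%). By overlap the count was 12 of 30 (40.0%, 22.7 to 59.4%) and within 500 bp it was 11 of 29 (37.9%, 20.7 to 57.7%), and both of these intervals include the share of all genes. The list's median SC fold enrichment and width, 6.43 and 1028 bp, were close to the 6.64 and 949 bp of all SC promoter genes. Held members included Ino80, Meaf6 (12.3 in SC, 5.80 in CC) and Epc2 (10.7 and 5.15), the last 2 of them subunits of acetyltransferase complexes that contain TIP60 or its relatives. H2afv, which encodes H2A.Z.2, had 14.0 in SC and 3.97 in CC, with the CC peak at −647 bp and off the SC peak. H2afz, which encodes H2A.Z.1, had 3.73 in SC and no CC promoter peak. Anp32e, the H2A.Z chaperone gene, had 14.3 in SC, and Ep400, the p400 ATPase gene, 14.6, and neither had a CC promoter peak. The nucleosome remodelling gene Actr5 (15.2) had none either.

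Zinc finger genes named Zfp, many of them repressors of transposable elements, were held in 124 of 304 cases (40.8%, 35.2 to 46.5%). Examples are Zfp786 (14.2 in SC, 4.82 in CC), Zfp282 (14.1 and 5.08), Zfp422 (13.9 and 4.70) and Zfp518b (13.7 and 5.40). Zfp507 (16.0 in SC) and Zfp541 (15.3) were stronger in SC and had no CC promoter peak. Members of such gene families share sequence, and no source used here says how reads were assigned among near-identical copies. The list's median SC width, 1120 bp, was above that of all genes.

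DNA replication and cell cycle genes were held in 36 of 92 cases (39.1%, 29.1 to 49.9%). Cdc25a, the phosphatase that drives entry into S phase, had 15.6 in SC and 4.12 in CC. The kinase gene Plk3 had 14.1 and 5.08, and E2f5, a transcription factor of the E2F family, 13.4 and 4.12. Mcm9 (17.4), Cdc14b (15.4), E2f6 (14.8) and E2f7 (14.5) had no CC promoter peak. DNA repair genes were held in 20 of 52 cases (38.5%, 25.3 to 53.0%). Rad21, a cohesin subunit, had 13.1 and 5.05. Topbp1 (16.1), Ercc2 (13.9) and Lig3 (13.6) had no CC promoter peak. Atr (13.5) had no CC promoter peak of its name, although a CC peak overlapped its SC promoter peak.

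Other housekeeping lists lay near or above the share of all genes. Aminoacyl-tRNA synthetases, which charge tRNAs, were held in 12 of 33 cases (36.4%), with Vars (13.2 in SC, 5.08 in CC) and Yars2 (12.8 and 4.38) as the strongest. Nuclear pore and transport genes were held in 16 of 51 cases (31.4%), among them Nup205 (13.8 and 4.36) and Xpo4 (13.7 and 5.08). Proteasome subunits were held in 12 of 40 cases (30.0%) and ubiquitin enzymes in 23 of 85 (27.1%). Chromatin-modifying enzymes were held in 16 of 61 cases (26.2%), including the histone methyltransferase genes Suv39h2 (15.0 and 5.76) and Ezh2 (13.9 and 5.84) and the deacetylase gene Hdac2 (12.3 and 4.41). Translation factors (12 of 49), mitochondrial ribosomal proteins (15 of 64), cytosolic ribosomal proteins (14 of 61), circadian clock genes (5 of 22), autophagy and lysosome genes (17 of 76), general transcription factors (18 of 82) and Rab GTPases (12 of 59) had shares of 20.3 to 24.5%. The clock genes Arntl (12.1 and 5.06), Per2 (11.4 and 4.64) and Cry1 (9.58 and 3.74) were held. Splicing factors (20 of 109, 18.3%) and the mitochondrial respiratory chain (10 of 62, 16.1%) were lower.

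Medium spiny neuron genes were held in 2 of 20 cases (10.0%, 1.23 to 31.7%). The list's SC peaks were narrow, with a median of 709.5 bp against 949 bp for all SC promoter genes. Gnal, the G protein subunit that couples D1 receptors to adenylyl cyclase, had 14.3 in SC and 5.38 in CC, and Foxp2 had 7.01 and 4.08. Drd2, the D2 receptor gene, had 13.6 in SC at chr9:49340157-49340883 and no CC promoter peak. Penk (11.4), Foxp1 (11.5), Isl1 (12.9), Ebf1 (14.4), Tac1 (3.79) and Adora2a (2.96) had none either. Drd1 and Pdyn had no promoter peak in SC or CC. Dopamine and cAMP signalling genes as a whole were held in 6 of 30 cases (20.0%), among them Prkar2a, a regulatory subunit gene of protein kinase A, and the G protein subunit gene Gnai1 (9.51 and 4.58). The adenylyl cyclase gene Adcy3 (14.3) was not held.

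Immediate early genes, which neurons switch on within minutes of activity, were held in 2 of 24 cases (8.33%, 1.03 to 27.0%). Nr4a2 had 14.3 in SC and 4.35 in CC, and Egr2 9.83 and 4.07. Egr1 (7.84 in SC), Nr4a1 (5.89), Arc (4.64), Fosb (4.22), Fos (3.04) and Junb (2.60) had no CC promoter peak, and Npas4 and Bdnf had none in SC or CC. MAPK and CREB signalling genes were held in 7 of 37 cases (18.9%), with Mapk9 (13.1 and 6.03) and Dusp5 (11.7 and 5.19) among them, while Creb1 (7.38) and Braf (12.7) were not.

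Glutamate receptors were held in 1 of 21 cases (4.76%, 0.120 to 23.8%). That gene was Grik1 (3.01 in SC, 4.08 in CC), and its CC peak did not overlap the SC peak, so by the overlap rule the count was 0 of 21. GABA receptor and synthesis genes were held in 1 of 18 cases (5.56%), through Abat (4.28 and 4.65), which encodes the enzyme that degrades GABA. Voltage-gated channels were held in 6 of 69 cases (8.70%, 3.26 to 18.0%), among them Kcnip1 (15.1 and 4.35) and Cacnb4 (14.2 and 4.07). The CC peak of Cacnb4 did not overlap its SC peak, and by the overlap rule the count was 4 of 69 (5.80%). Kcns3 (16.8), Gabra4 (13.3) and Grin2d (12.6) had strong SC peaks and no CC promoter peak. Postsynaptic scaffolds were held in 3 of 23 cases, these being Kalrn, Dlgap3 and Dlg2, and presynaptic release genes in 4 of 29 (13.8%), these being Unc13b, Pclo, Vamp1 and Stx1a. The CC peak of Vamp1 lay off its strongest SC peak. Cadherins and protocadherins were held in 2 of 29 cases (6.90%) and axon guidance genes in 10 of 55 (18.2%).

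Developmental transcription factors of the Hox, Pax, Gata, Tbx, Nkx, Sox and related families were held in 4 of 82 cases (4.88%), although their median SC fold enrichment of 9.32 was above the 6.64 of all genes. The 4 were Sox30, Foxk2, Pitx3 and Six4. The CC peak of Pitx3 lay off its SC peak. Their CC peaks lay 524 to 812 bp from the start site, and within 500 bp the count was 0 of 66. Foxi3 (17.3), Hoxd1 (16.1), Pax1 (15.8) and Foxb2 (15.7) were not held. The list's SC peaks were narrow, with a median of 732 bp. Histone cluster genes were held in 0 of 11 cases, which allows a share of up to 28.5%, and had a median SC width of 403 bp.

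Because width moved with the held share, sets of lists were set side by side within 3 equal groups of SC peak width, a grouping chosen after the list values were seen. Among narrow SC peaks (315 to 785 bp) all SC promoter genes were held at 14.3%, among middle ones at 24.9% and among wide ones (above 1087 bp) at 32.6%. Cell cycle and DNA repair genes together had 30.4% (17 of 56), 36.6% (15 of 41) and 51.1% (24 of 47). Zfp genes had 6.38% (3 of 47), 41.9% (36 of 86) and 49.7% (85 of 171). The 5 synaptic and channel lists together had 14.3% (7 of 49), 4.55% (3 of 66) and 11.1% (5 of 45), with intervals that overlap (5.94 to 27.2%, 0.947 to 12.7% and 3.71 to 24.1%). Developmental factors had 2 of 47, 1 of 20 and 1 of 15.

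**Figure D5:**
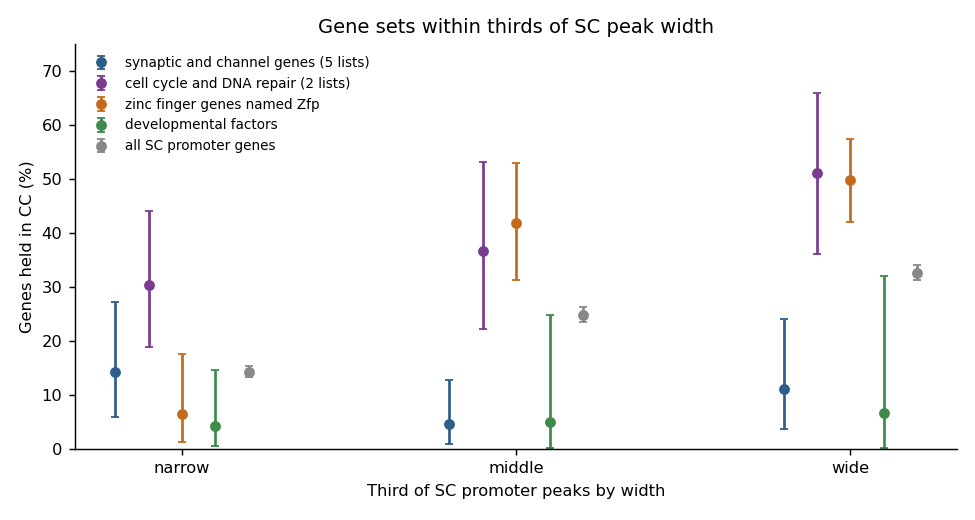
Share of genes held in CC (y axis, percent) in 3 equal groups of SC promoter peaks by width (x axis), for 4 sets of lists and for all SC promoter genes. Points are shares and bars exact 95% intervals. The share over all genes goes from 14.3% to 32.6%, and the synaptic and channel genes lie between 4.55% and 14.3%, with wide intervals.

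The tissue label was set against markers of other cells. Of 7 microglia markers none had an SC promoter peak, and of 7 astrocyte markers Slc1a2, Sox9 and Slc1a3 did and none was held. Of 11 oligodendrocyte and precursor markers 4 had an SC promoter peak, and Olig1 was held by name through a CC peak off its SC peak. Endothelial markers were held in 0 of 3 cases and interneuron markers in 1 of 6, through Pthlh, by a CC peak off its SC peak. Since H2A.Z marks promoters in many cell types, a promoter peak does not show expression, and the makeup of the tissue was not measured.

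Held SC genes also differed by their presence in the other lists. SC promoter genes with a CS promoter peak were held at 42.7% (1622 of 3802), and those without at 15.8% (1389 of 8781). SC promoter genes with an SS promoter peak were held at 24.9% (2925 of 11730) and those without at 10.1% (86 of 853). At peak level, 3605 of 18358 SC peaks that overlapped an SS peak were overlapped in CC (19.6%), against 28 of 4226 SC peaks outside SS (0.663%). The SC peaks outside SS were weaker and narrower, with medians of 3.18 and 416 bp against 5.42 and 833 bp. Among SC peaks above the median SC fold enrichment the shares were 26.0% inside SS and 5.17% (6 of 116) outside. These 2 sets were still unequal, with median fold enrichments of 8.46 inside and 5.12 outside and median widths of 983 and 483 bp. CS has narrow peaks like CC, so overlap between these lists and their form cannot be told apart.

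The same lists were also counted in CS. H2A.Z and exchange genes had a CS promoter peak in 43.3% of their SC promoter genes, Zfp genes in 47.0%, DNA repair genes in 26 of 52 cases, and all SC promoter genes in 30.2%. Medium spiny neuron genes had one in 0 of 20 cases, developmental factors in 6.10%, glutamate receptors in 9.52% and immediate early genes in 12.5%. Some lists differed more between the CC and CS shares: Rab GTPases had 20.3% in CC and 45.8% in CS, splicing factors 18.3% and 34.9%, and dopamine and cAMP genes 20.0% and 10.0%. Those differences between CC and CS were not tested, and both shares rest on the same SC genes.

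CC peaks with no SC peak numbered 491, or 10.5% (9.65 to 11.4%) of CC. There were 155 with q-values of at most 1e-05 in both lists, and 3449 with SC cut to the length of CC. They were as strong as the rest by the median, 4.81 in both sets, and narrower, 88 bp against 109 bp. Of them 31.6% had a q-value of at most 1e-05, against 16.6% of the CC peaks on SC peaks. They lay within 1000 bp of a start site in 59.1% of cases (290 of 491), compared with 85.9% for the others. By class, 25.1% of the CC gene body peaks, 23.8% of the intergenic, 29.5% of the Promoter3k, 9.17% of the Promoter1k and 6.09% of the ProximalPromoter peaks had no SC peak.

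Most of these peaks were not far from SC or SS territory. The nearest SC peak was a median of 989 bp away, 246 of the 491 lay within 1000 bp of one, and 76 lay more than 50 kb away. An SS peak overlapped 283 of them (57.6%, 53.1 to 62.1%) and a CS peak 163 (33.2%). In no other list were 121 of them found (24.6%). These were 20 ProximalPromoter, 36 Promoter1k, 9 Promoter3k, 19 gene body and 37 intergenic peaks. CC peaks on SC peaks overlapped an SS peak in 98.7% of cases and a CS peak in 31.8%. By CC strength, the share without an SC peak was 17.9% at fold enrichments up to 4, 9.08% at 4 to 5, 7.29% at 5 to 6, 21.4% at 6 to 8 and 39.2% (40 of 102) at 8 to 15. Above 15 it was 1 of 41, and all 41 of those peaks overlapped both an SS and a CS peak. Of all 102 CC peaks at 8 to 15, 96.1% overlapped a CS peak and 17.6% lay within 1000 bp of a start site. At 4 to 5 these shares were 26.1% and 86.8%.

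By gene, 378 CC promoter genes had no SC promoter peak of that name, and 107 of 3389 (3.16%) had neither that nor an SC peak under their CC promoter peak (19 with the q-value limit and 2269 at equal list length). Of these 107, 71 had an SS promoter peak, 40 a CS promoter peak and 24 neither. With predicted genes, clones and pseudogenes skipped, the small nucleolar RNA gene Snord37 was the strongest, at 8.57 in CC. It had 9.71 in CS and none in SS. Ube2t, a ubiquitin-conjugating enzyme of the Fanconi anaemia pathway, followed at 6.32 in CC (chr1:134962713-134962795) and 4.41 in SS. Pbk, a mitotic kinase gene, had 6.04 in CC and 4.78 in SS. Slc31a1, the copper importer gene, had 5.98 in CC and also had an SS promoter peak. Susd3 (5.80), Tpbg (5.60), Lrrc63 (5.54), Nxnl2, Zgrf1 and Rhd (5.44 each) completed the 10. Zgrf1, a gene for a DNA helicase, was the 1 of the 10 with a promoter peak in neither SS nor CS.

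Some members of the functional lists were among the 107. In the DNA replication and cell cycle list, 36 genes were held and 9 had a CC promoter peak without an SC promoter peak of that name. Of these 9, 5 were among the 107. Over all 3389 CC promoter genes the same counts were 3011, 378 and 107 (3.16%), and the difference was not tested. The 5 were Cdc25c (4.64 in CC), Cenpl (4.47), Cenpp (4.84), Orc1 (4.71) and Rpa1 (4.51). Orc1, the largest subunit of the origin recognition complex, had an SS promoter peak of 8.08 and a CS promoter peak of 4.57 and none in SC. Rpa1, a single-strand DNA binding protein gene, had none in SS or CS. Brca1 (4.22 in CC, 3.20 in SS) from the repair list, Nup43 (4.42) from the nuclear pore list and Pcdhb1 (4.71) from the cadherin list were the other list members besides Ube2t.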

How the data were processed

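H2A.Z ChIP-seq of mouse nucleus accumbens was analysed from 4 annotated peak lists, 1 per condition of 3 samples. No source used here states the calling settings, the control library, or whether samples were pooled before calling. The submitters' processing notes name cutadapt, HISAT, SAMtools, MACS2 and mm10, without versions. The authors deposited, per the file headers, a fold enrichment (a linear ratio) and a q-value (linear scale) for each peak, with region class, gene name and signed distance. The distance equalled the peak middle minus the TSS within 0.5 bp in all 4 lists. The H3 libraries and sequencing depth were not analysed here.

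Peaks on chromosomes 1 to 19 were compared by 1 bp overlap and genes by promoter peaks within 1000 bp of the TSS, with Python 3.11.15, pandas 2.3.3 and SciPy 1.17.1. The overlap step was tested on simulated peaks and against bedtools 2.31.1. With 1 list per condition there was no test and no replicate error, so shares carry exact 95% binomial intervals. The 38 gene lists were chosen with earlier results of these data known, as were the members compared.

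Genes named are the 10 strongest SC genes held, the 10 strongest with no CC peak, the 10 strongest in CC with no SC peak, the 10 held genes strongest in CC, up to 4 held and 4 not held per list, and fixed genes of dopamine signalling, early response and H2A.Z biology. Predicted genes, clones and pseudogenes were skipped in the first 4 sets. Other names are marked where they occur. A few genes that the rule would name are not reported here. Promoter sequences are RefSeq's, matched by symbol, strand and a start within 300 bp. They matched 70.3% of protein-coding SC promoter genes, below the 80% needed, so a comparison of base composition or motifs was void and was not made. Alternatives changed the overlap rule, promoter distance, q-value limit, list length, chromosomes and grouping.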

Additional observations from a re-analysis of the deposited data

Results flagged for a closer look

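Peaks in 2 places outside chromosomes 1 to 19, which no comparison above uses, were more numerous in CC than in the saline-saline list. On the mitochondrial chromosome there were 14 CC peaks, against 1 in SS, 6 in SC and 14 in CS. On 1 unplaced scaffold there were 96 CC peaks, against 30 in SS, 26 in SC and 95 in CS. The length covered on that scaffold was 16.9 kb in CC, 21.3 kb in SS, 17.5 kb in SC and 17.5 kb in CS. On the mitochondrial chromosome it was 8.68 kb in CC, 0.359 kb in SS, 8.35 kb in SC and 8.88 kb in CS. The cause was not tested.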

How the results depend on the processing

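No paired analysis was possible because each condition has 1 list that names its 3 samples together, with no column per replicate. Leaving out a sample was not possible either. No depth was analysed here to set a detection limit, and intervals cover counting only. With q-values of at most 1e-05 in both lists, 2.88% of SC peaks were overlapped, 81.7% of CC peaks lay on an SC peak, 155 CC peaks had no SC peak, 3.77% of SC promoter genes were held and 19 CC promoter genes had neither an SC promoter peak nor an SC peak. CC keeps 847 peaks under this limit and SC 22106. With SC cut to its 4670 strongest peaks, the length of CC, the values were 22.4%, 26.1% and 3449 for peaks and 2269 for CC promoter genes with neither. The held share of genes was then 23.6% (1015 of 4305), inside its interval. The CC list was unchanged by this cut, so 23.6% is the share among genes with the strongest SC promoter peaks.

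Requiring an overlap of at least 50% of the shorter peak, or the CC middle inside the SC peak, put 87.8% of CC peaks on SC peaks, and all chromosomes together 88.2%. The held share of genes was 22.6% with promoters within 500 bp and 25.2% over names matching a RefSeq protein-coding gene. By gene name alone, 378 CC promoter genes had no SC promoter peak. The strongest of 10 groups was held at 31.5% when groups were made by q-value. The ProximalPromoter share was 22.5% with CC peaks of q-value at most 0.01. The share for SC peaks centred 0 to 200 bp upstream was 29.6% by overlap. Of 74 alternative values for single lists, 69 stayed inside the interval of the list's share. The held shares of groups 5, 7 and 9 of 10 were 37.3%, 16.4% and 21.9% by q-value, so group 7 was again below both.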

Other observations

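Chromosome X lay outside the comparison, and its values differed from those of the other chromosomes. SC had 515 peaks on X, with a median fold enrichment of 4.66 and a median width of 690 bp, and CC had 17. CC peaks overlapped 7 of the 515, which is 1.36% (0.548 to 2.78%), compared with 16.1% on chromosomes 1 to 19. Of 361 SC promoter genes on X, 3 were held (0.831%, 0.172 to 2.41%), compared with 23.9%. These were Foxo4, a forkhead transcription factor gene, Mid1, a microtubule-associated ubiquitin ligase gene that reaches into the pseudoautosomal region, and the predicted gene Gm15247. The lowest share among chromosomes 1 to 19 was 20.1%. CS peaks overlapped 11 of the 515 SC peaks on X (2.14%) and SS peaks 317 (61.6%). On chromosomes 1 to 19, SS peaks overlapped a larger share, 18358 of 22584 SC peaks. SS and CS had 400 and 29 peaks on X. The sex of the animals is not given in the labels, and the cause was not tested.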
